A study of Mus musculus with 4 samples.

Results

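A set of 7 mouse miRNAs known from endothelium and from mesenchymal cells was followed in the liver of wild-type (WT) and *Clock* mutant mice at 2 times of the day. They were chosen by name among the 611 mouse miRNAs on the array, without their star strands: mmu-miR-126-3p and mmu-miR-126-5p for endothelium, and mmu-miR-143, mmu-miR-145, mmu-miR-199a-3p, mmu-miR-199a-5p and mmu-miR-214 for mesenchymal cells. Of the 7, 6 were detected on at least 1 array, and 5 on all 4.

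The study asked which liver miRNAs differ when the clock gene *Clock* is mutated, and it measured them on 1-colour Agilent arrays. All mice were male and 6 to 8 weeks old, housed singly under 12 h of light and 12 h of dark with free food for 2 weeks. Mutants carried the *Clock*Δ19 allele, and the strain of the WT mice is not given in the sources used here. Livers were taken at ZT2, which is 2 h after lights-on, and at ZT14, which is 2 h after lights-off. Crossing the 2 genotypes with the 2 times gave 4 conditions. Each was 1 pool of RNA from 3 mice on 1 array, so no condition had a replicate. An miRNA array does not measure the *Clock* gene, and the genotype labels were therefore not checked.

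A miRNA is a short RNA that pairs with messenger RNAs, mainly through its seed, and lowers their output. miR-126 is made within the endothelial gene *Egfl7* and is known for its role in vessel integrity and in signalling by vascular growth factors. miR-143 and miR-145 come from a common transcript and are best known from smooth muscle, while miR-199a and miR-214 are made together in mesenchymal cells and are known in liver from stellate cells, the vitamin A-storing cells that lay down scar matrix once activated. Whole liver consists mostly of hepatocytes, and in such bulk RNA fewer cells of a type and less of the miRNA per cell cannot be told apart.

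The mature sequences of 4 of these miRNAs are shown to give the molecules that the array names were matched to. They were taken from RefSeq (mouse build GRCm38.p6) and matched by name, the array's mmu-miR-126-3p to mmu-miR-126a-3p and its mmu-miR-214 to mmu-miR-214-3p. Probe sequences were not read, so what the probes bind was not checked. The mature sequences run 5′ to 3′, with the seed (bases 2 to 8) in capitals.
mmu-miR-126-3p: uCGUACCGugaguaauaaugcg
mmu-miR-199a-3p: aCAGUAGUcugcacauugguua
mmu-miR-199a-5p: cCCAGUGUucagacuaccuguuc
mmu-miR-214: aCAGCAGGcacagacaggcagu

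mmu-miR-126-3p lies at chr2:26591402-26591423 on the plus strand, inside the protein-coding gene *Egfl7*. Both miR-199a arms have 2 loci. The first, Mir199a-2, holds mmu-miR-199a-3p at chr1:162217883-162217904 and mmu-miR-199a-5p at chr1:162217844-162217866 on the plus strand, within *Dnm3* and the long non-coding RNA *Dnm3os*. The second, Mir199a-1, holds them at chr9:21496498-21496519 and chr9:21496537-21496559 on the minus strand, within *Dnm2*. mmu-miR-214 lies at chr1:162223438-162223459 on the plus strand, also within *Dnm3os*, and its hairpin starts 5445 bases after that of Mir199a-2 ends. mmu-miR-199a-3p is identical to mmu-miR-199b-3p, so its signal is that of both. The seeds of mmu-miR-199a-3p and mmu-miR-214 have the same base at 5 of 7 positions but are not the same seed. Among the mature sequences searched, the seed of mmu-miR-214 was shared with 1 other miRNA, mmu-miR-761. For the other 3 seeds the search found none beyond the identical miR-199b-3p. The list searched was incomplete, with no entry matched for mmu-miR-126-5p, so further miRNAs with these seeds are possible.

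Each of the 7 miRNAs was read by 2 probes and 20 spots per array. Signals are background-subtracted intensities, and the scaled signal is the signal over its array's 75th percentile, taken from the 123 mouse miRNAs that every array detected. That percentile was between 340 and 537 units. The arrays detected between 138 and 193 of the 611 mouse miRNAs, with negative control spots averaging between 5.24 and 9.72 units. All 4 arrays lay on 1 slide and were scanned together. The error given with a ratio is the combined SD of the repeated spots of both arrays (spot SD), which is technical and does not cover the spread between mice. A ratio was called higher or lower where its size passed 1 spot SD, and evident where it reached 2-fold, the threshold of the study's methods. The scaling moved the median ratio of all miRNAs by more than 0.1 on the log2 scale, so ratios are also given relative to that median where a direction turned. Settings that only rescale whole arrays cannot change such a relative value. These are no scaling, the percentile over all mouse miRNAs, the median, spike-ins and miR-122. A relative sign kept under them is no separate support.

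The endothelial arm mmu-miR-126-3p was nearly level across the 4 livers. Its scaled signal was 3.68 in WT at ZT2, 4.03 in the mutant at ZT2, 3.51 in WT at ZT14 and 3.44 in the mutant at ZT14. The mutant at ZT2 stood above the other 3, which followed each other within 1 spot SD. WT at ZT2 nonetheless stood slightly more than 1 spot SD above the mutant at ZT14. The highest value was 1.17-fold the lowest. At ZT2 the mutant was 1.09-fold WT (log2 ratio 0.13, spot SD 0.06), and the 2 probes gave 0.12 and 0.13. That direction turned under 4 of 11 other settings (quantile normalization, scaling to miR-122, the summed signal and the brightest probe). Relative to the median of all miRNAs it was 0.19 and turned under quantile normalization alone (-0.12). At ZT14 the genotypes differed by less than the spots (-0.03, spot SD 0.07). From ZT2 to ZT14 the log2 ratio was -0.23 in the mutant (spot SD 0.05) and -0.07 in WT (spot SD 0.08). The median of all miRNAs in the mutant was itself -0.16, and the direction turned under 2 settings (the percentile over all mouse miRNAs and the authors' table). Relative to that median the ratio in the mutant was -0.07 (-0.17 to -0.04 under the other settings). In WT the relative ratio was 0.05 (-0.21 to 0.07).

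**Figure D1:**
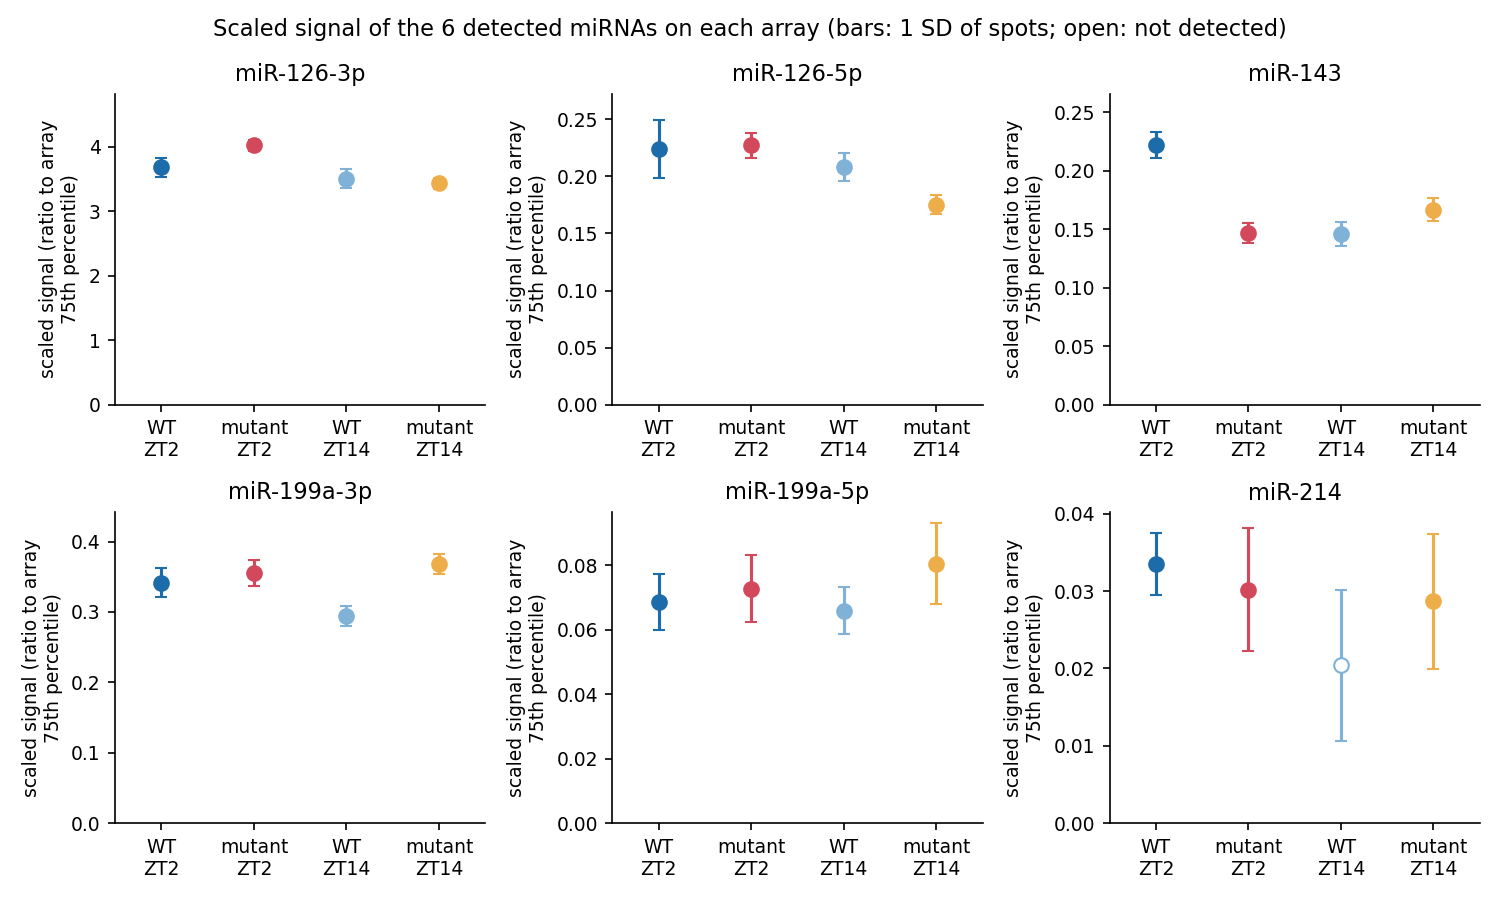
Scaled signal (ratio to the 75th percentile of the array, linear axes from 0) of the 6 detected miRNAs on the 4 arrays, with bars of 1 SD of the repeated spots and an open point where the miRNA was not detected. miR-143 was highest in WT at ZT2, at 0.222, and lay between 0.146 and 0.167 elsewhere, while miR-214 was not detected in WT at ZT14.

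The partner arm mmu-miR-126-5p was nearly level on 3 arrays and lower on the fourth. Its scaled signal was 0.224 in WT at ZT2, 0.227 in the mutant at ZT2, 0.208 in WT at ZT14 and 0.175 in the mutant at ZT14. The mutant at ZT14 lay below its next neighbour by more than 1 spot SD. The other 3 followed each other within 1 spot SD, although the mutant at ZT2 stood slightly more than that above WT at ZT14. At ZT14 the mutant was 0.841-fold WT (log2 ratio -0.25, spot SD 0.11), with -0.26 and -0.22 by probe, although probe 2 alone was within its own spot SD of 0.23. Without scaling, with scaling to spike-ins, with the percentile over all mouse miRNAs and in the authors' table the ratio was above 0. Relative to the median of all miRNAs it was below 0 in every setting run (-0.33 to -0.13). Settings that only rescale arrays could not turn that relative value. At ZT2 the genotypes did not differ beyond the spots (0.02, spot SD 0.18).

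The 2 arms of miR-126 were then set against each other, since they are cut from the same hairpin. The genotype ratio of the 3p arm exceeded that of the 5p arm by 0.22 at ZT14 (spot SD 0.13) and, over time in the mutant, by 0.15 (spot SD 0.11). At ZT2 the arms differed by 0.11 (spot SD 0.19), and over time in WT by 0.04 (spot SD 0.20), both within the spots. Both contrasts in which the arms parted include the mutant array at ZT14, and neither difference came near 2-fold. Over time in the mutant the order of the arms depended on the processing. The 3p arm lay below the 5p arm with quantile normalization (0 against 0.10) and slightly with normexp (-0.22 against -0.21). At ZT14 the 3p arm stayed above with both, but with quantile normalization the ratios were closer (0 against -0.10).

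Of the 5 endothelial and mesenchymal miRNAs detected on all arrays, mmu-miR-143 had the widest range over the conditions. Its scaled signal was 0.222 in WT at ZT2, 0.147 in the mutant at ZT2, 0.146 in WT at ZT14 and 0.167 in the mutant at ZT14. WT at ZT2 stood above the other 3 by more than 1 spot SD, the mutant at ZT14 came next, and the mutant at ZT2 and WT at ZT14 could not be told apart. The highest value was 1.52-fold the lowest.

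At ZT2 mmu-miR-143 was 0.663-fold WT in the mutant (log2 ratio -0.59, spot SD 0.11). This was the 16th lowest of 160 ratios, and 11.2% of all miRNAs measured there had a larger change. At ZT14 the ratio had the opposite sign, 1.14-fold (0.19, spot SD 0.13). Both probes gave the same directions, with -0.63 and -0.57 at ZT2 and 0.23 and 0.17 at ZT14. Over time it was 0.658-fold in WT (-0.60, spot SD 0.13) and 1.14-fold in the mutant (0.18, spot SD 0.12).

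The repeated spots of mmu-miR-143 showed where the arrays separated. In WT at ZT2 they ran from 0.154 to 0.187 by probe 1 and from 0.253 to 0.288 by probe 2. The highest spot on any other array was 0.144 by probe 1 and 0.218 by probe 2, both in the mutant at ZT14. No spot of the WT array at ZT2 overlapped those of another array, whereas spots of the other 3 arrays overlapped each other. mmu-miR-143 was looked at because its range was the widest, and the share of all miRNAs with such separated spots was not counted. The separation therefore does not set mmu-miR-143 apart from other miRNAs. The spots are technical repeats of 1 pool per array.

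**Figure D2:**
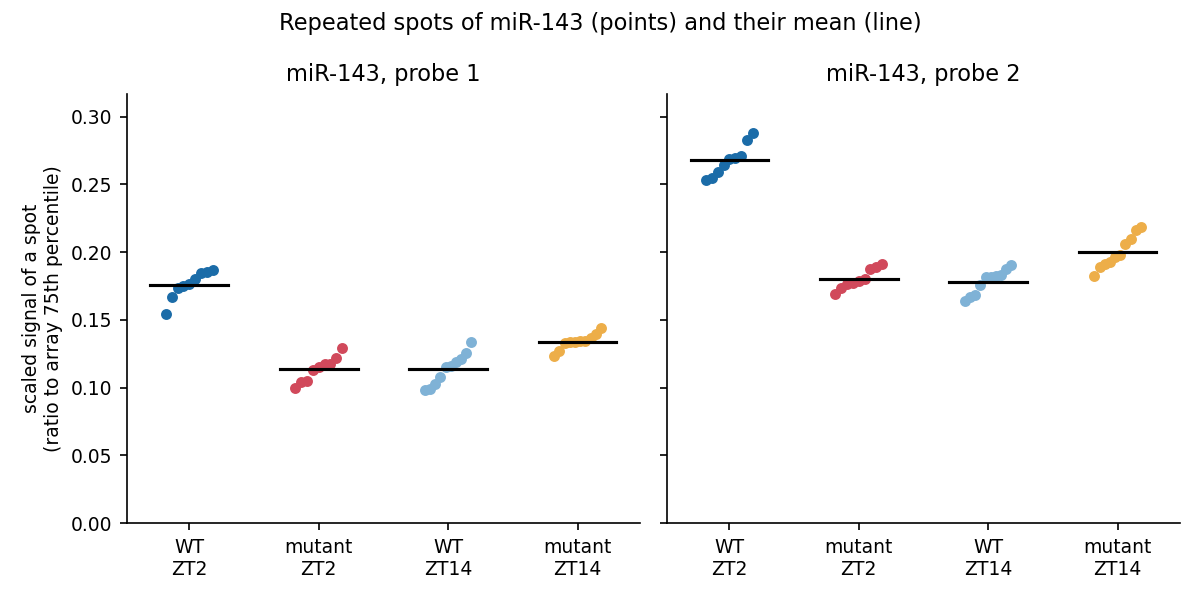
Scaled signal of each repeated spot of miR-143 (points, without outlier spots) and their mean (lines) by probe and array, on a linear axis from 0. Spots of WT at ZT2 began at 0.154 by probe 1 and 0.253 by probe 2, above all spots of the other 3 arrays, which reached 0.144 and 0.218. The spots are technical repeats of 1 pool per array, and the share of all miRNAs with spots so separated was not counted.

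The direction of each of these mmu-miR-143 ratios turned under at most 1 of the 11 other settings. At ZT2 and over time in WT the ratio was above 0 only in the authors' table, and at ZT14 it was below 0 only after normexp background correction (-0.11). Relative to the median of all miRNAs, it was lower at ZT2 (-0.65 to -0.34), higher at ZT14 (0.06 to 0.29) and lower over time in WT (-0.53 to -0.20) in all 11 other settings. Those that only rescale arrays could not turn these signs, and the ends of the ranges come from the remaining settings.

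The muscle, leukocyte and bile-duct marker miRNAs also summed highest on the WT array at ZT2. Of 7 skeletal and heart muscle miRNAs, 3 were detected there and 0 elsewhere: miR-1 had a signal of 105.8 units on that array and at most 4.46 on the others. The summed scaled signal of that list was 0.290 in WT at ZT2 and between -0.028 and -0.003 elsewhere. The 6 leukocyte miRNAs summed to 1.42 in WT at ZT2 (4 detected) and to between 0.755 and 0.918 elsewhere (3 detected on each). The 5 bile-duct miRNAs of the miR-200 family summed to 0.238 there (4 detected), and to between 0.0893 and 0.155 elsewhere (2 to 3 detected). All 6 hepatocyte miRNAs were detected on every array, with sums between 99.7 and 126. A sum mostly follows its brightest member: miR-122 made up 97.3 of the 111.8 of the hepatocyte list in WT at ZT2. The median genotype log2 ratio of the hepatocyte list at ZT2 was -0.02, with 3 of 6 above 0. The 3 red blood cell miRNAs were highest in the mutant at ZT2, at 5.94 (3 detected), against 2.56 to 3.34 elsewhere (2 detected on each). The part of these lists in the mmu-miR-143 difference was not tested.

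**Figure D3:**
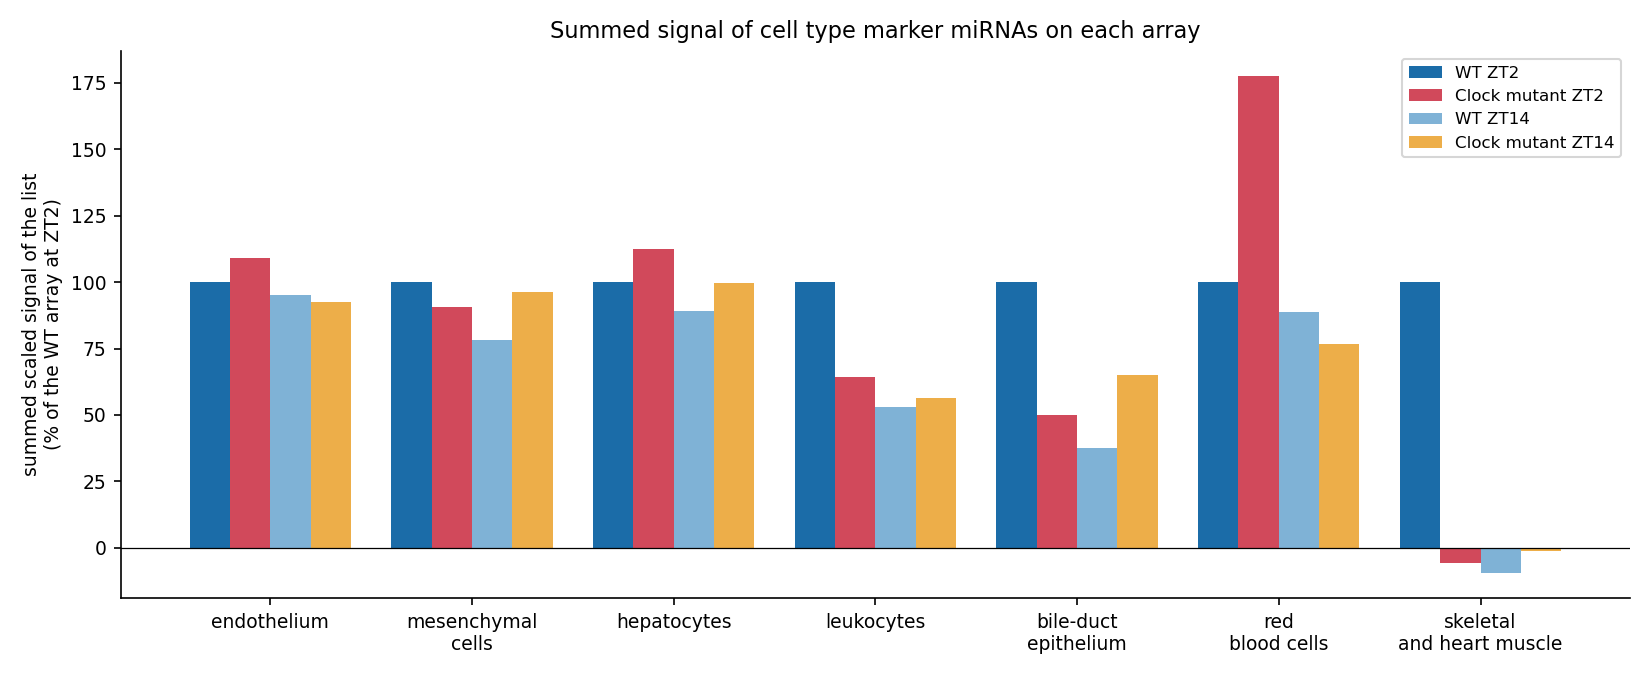
Summed scaled signal of cell type marker miRNAs on each array, as a percent of the WT array at ZT2 (bars from 0, no error bars because each bar is 1 array). Muscle miRNAs were between -9.6% and -1.12% on the other 3 arrays and leukocyte miRNAs between 53.0% and 64.5%, while the endothelial pair lay between 92.5% and 108.9% and the mesenchymal miRNAs between 78.4% and 96.4%. The bar of the endothelial pair mostly shows miR-126-3p, which made up 3.68 of 3.91 in WT at ZT2, and that of hepatocytes mostly miR-122 (97.3 of 111.8).

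mmu-miR-145, the usual companion of miR-143, was not detected on any array. Its mean signals were 3.34, 1.29, -0.02 and 1.65 units in WT at ZT2, mutant at ZT2, WT at ZT14 and mutant at ZT14, and 0 of 20 spots were well above background on each. On every array this was less than the negative control spots averaged. Its star strand, mmu-miR-145*, was not detected either. Of the smooth muscle pair, 1 member was thus measured and the label of smooth muscle rested on mmu-miR-143 alone.

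mmu-miR-199a-3p was lowest in WT at ZT14. Its scaled signal was 0.342 in WT at ZT2, 0.355 in the mutant at ZT2, 0.294 in WT at ZT14 and 0.368 in the mutant at ZT14. Only the step down to WT at ZT14 passed 1 spot SD, and the highest value was 1.25-fold the lowest. At ZT14 the mutant was 1.25-fold WT (log2 ratio 0.32, spot SD 0.09), with 0.34 and 0.32 by probe, and the ratio was above 0 in all 11 other settings (0.12 to 1.14). It ranked 113th from the lowest of 123 ratios, and 26.0% of all miRNAs there changed by more. At ZT2 the genotypes did not differ beyond the spots (0.06, spot SD 0.12). Over time the log2 ratio was -0.22 in WT (spot SD 0.11), which turned under 4 settings (the percentile over all mouse miRNAs, the median, quantile normalization and the authors' table), and 0.05 in the mutant (spot SD 0.09). Relative to the median of all miRNAs the ratio in WT was -0.09, and below 0 in all 11 other settings (-0.14 to -0.0048). Those that only rescale arrays could not turn it.

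mmu-miR-199a-5p, cut from the same hairpins, gave the same order with wider errors. Its scaled signal was 0.0686 in WT at ZT2, 0.0728 in the mutant at ZT2, 0.0660 in WT at ZT14 and 0.0805 in the mutant at ZT14. No neighbours in that order differed beyond their spots. The mutant was 1.22-fold WT at ZT14 (0.29, spot SD 0.28), just past the spots, and this turned after normexp. Only probe 1 was bright: all 10 of its spots were well above background on every array, and it gave 0.17 at ZT14 (spot SD 0.09), while probe 2 had at most 1 of 10 such spots and gave 1.02 (spot SD 1.25). At ZT2 the ratio was 0.09 (spot SD 0.27), over time in WT -0.06 (spot SD 0.24) and over time in the mutant 0.14 (spot SD 0.30), all within the spots. The 2 arms of miR-199a did not differ from each other beyond the spots in any of the 4 contrasts, with differences of -0.16 to 0.04.

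The related strand mmu-miR-199b* was also detected on all arrays. Its scaled signal was 0.0739 in WT at ZT2, 0.0587 in the mutant at ZT2, 0.0574 in WT at ZT14 and 0.0659 in the mutant at ZT14. Its log2 ratio at ZT2 was -0.33 (spot SD 0.25) and over time in WT -0.37 (spot SD 0.26). At ZT14 and over time in the mutant its ratios of 0.20 (spot SD 0.31) and 0.17 (spot SD 0.30) were within the spots.

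mmu-miR-214 was close to the limit of detection. Its signal was 17.99 units in WT at ZT2, 15.2 in the mutant at ZT2, 6.93 in WT at ZT14, where it was not detected, and 15.4 in the mutant at ZT14. The spots well above background numbered 9, 5, 0 and 4 of 20, all of them on probe 2. At ZT2 the mutant and WT did not differ beyond the spots (log2 ratio -0.15, spot SD 0.42), nor did the mutant over time (-0.07, spot SD 0.58). Against WT at ZT14 the values of probe 2 alone were compared, a choice made after the data were seen. By that probe the mutant at ZT14 was 1.23-fold WT at ZT14 (log2 ratio 0.30, spot SD 0.54), and WT at ZT2 was 1.30-fold WT at ZT14 (0.38, spot SD 0.46). Both lay within 1 spot SD, so neither was called higher. That rule uses the spread of single spots, and it does not show that the levels were equal. Its star strand, mmu-miR-214*, was not detected on any array.

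The endothelial and mesenchymal miRNAs were next counted beside all miRNAs measured, and 0 of them reached 2-fold in any contrast. At ZT2, 6 were measured and their median log2 ratio was 0.04, against -0.07 over 160 miRNAs (SD 0.36). None of the 6 reached 2-fold, which 2.5% of all miRNAs did. One of 6, mmu-miR-143, was lower by more than 1 spot SD, against 30.6% of all, and 1, mmu-miR-126-3p, was higher, against 21.9% of all.

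At ZT14, 5 were measured, with a median of 0.19 against -0.03 over 123 miRNAs (SD 0.64). None of the 5 reached 2-fold, against 6.5% of all. One, mmu-miR-126-5p, was lower (35.8% of all), and 3, mmu-miR-143 and both miR-199a arms, were higher (26% of all). The endothelial pair had a median of -0.14 and the 3 mesenchymal miRNAs of 0.29.

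Over time in WT the median of 5 was -0.10, against -0.12 over 137 miRNAs (SD 0.34). None reached 2-fold (3.65% of all), 2 were lower, mmu-miR-143 and mmu-miR-199a-3p (45.3% of all), and 0 were higher (10.2% of all). In the mutant the median of 6 was -0.01, against -0.16 over 140 miRNAs (SD 0.56). None reached 2-fold (6.43% of all), 2 were lower, both arms of miR-126 (49.3% of all), and 1 was higher, mmu-miR-143 (4.29% of all).

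**Figure D4:**
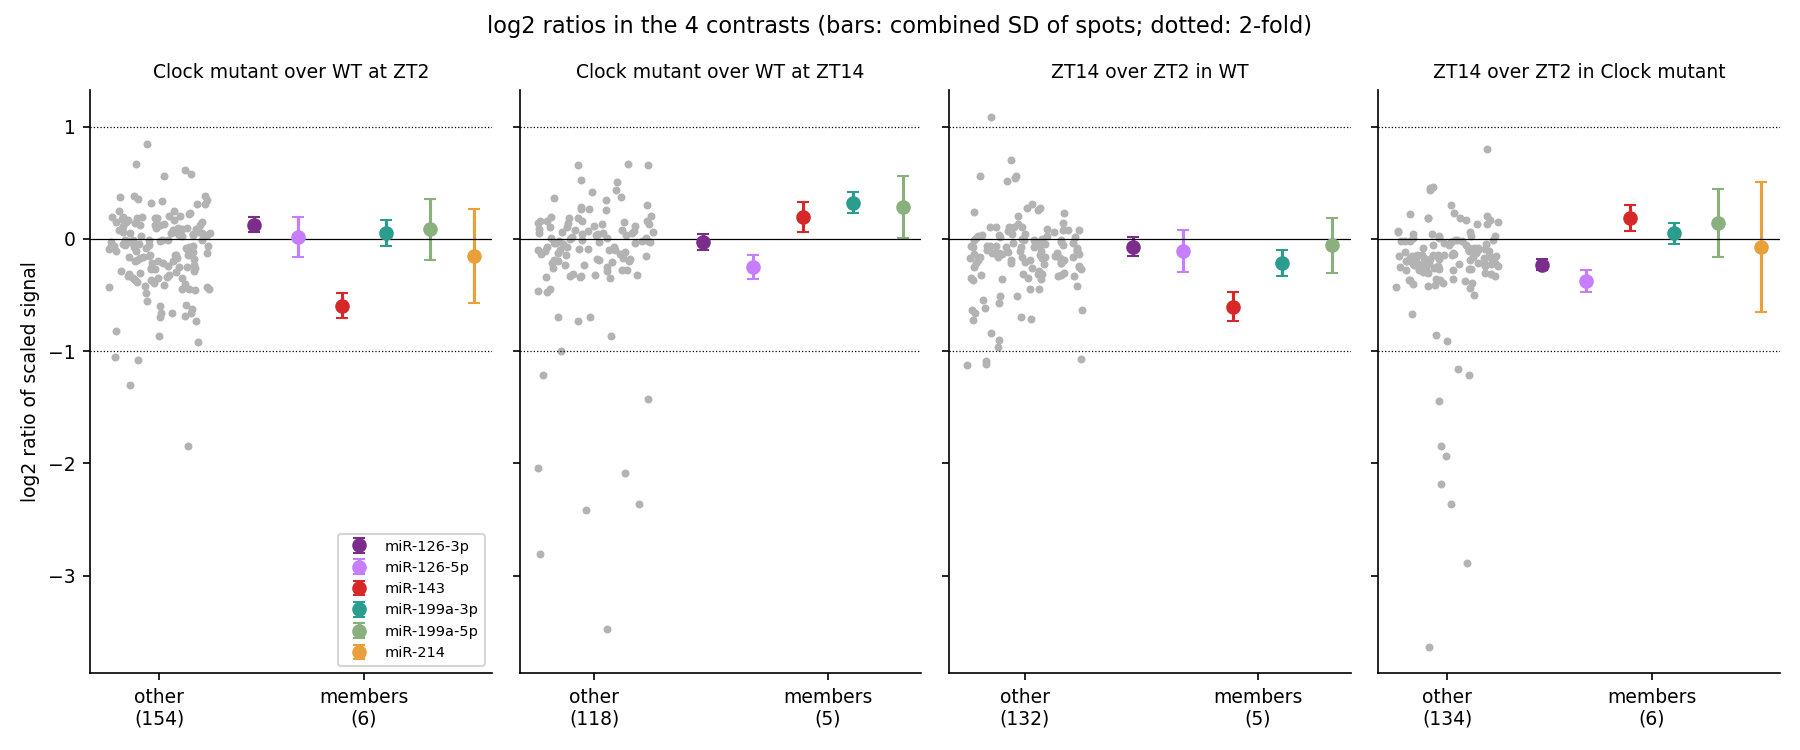
log2 ratios of scaled signal in the 4 contrasts, with the other miRNAs measured as grey points and the endothelial and mesenchymal miRNAs as coloured points with bars of 1 combined spot SD; dotted lines mark 2-fold. No coloured point reached 2-fold, and miR-143 lay lowest among them at ZT2 (-0.59) and over time in WT (-0.60).

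The genotype ratios at the 2 times were also subtracted, ZT14 minus ZT2, over the 123 miRNAs (median -0.06, SD 0.62). With 1 array per condition this difference has no test. mmu-miR-143 gave 0.79 (spot SD 0.17), the 6th highest of 123, and mmu-miR-199a-3p 0.27 (spot SD 0.15), the 16th highest. Both stayed above 0 in all 11 other settings, but their size moved: mmu-miR-143 ranged from 0.22 with normexp to 1.65 with spike-ins, and mmu-miR-199a-3p from 0.07 to 1.13 under the same settings. Relative to the median of all miRNAs these ranges were 0.41 to 0.89 and 0.16 to 0.33. mmu-miR-199a-5p gave 0.20 (spot SD 0.39), within its spots. The endothelial arms had the other sign, mmu-miR-126-3p with -0.16 (spot SD 0.10) and mmu-miR-126-5p with -0.27 (spot SD 0.21), although the first turned under 6 settings and the second under 2. Relative to the median of all miRNAs, mmu-miR-126-3p (-0.10) turned under 2 settings and mmu-miR-126-5p (-0.21) under 0. Settings that only rescale arrays could not turn any of these relative values.

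**Figure D5:**
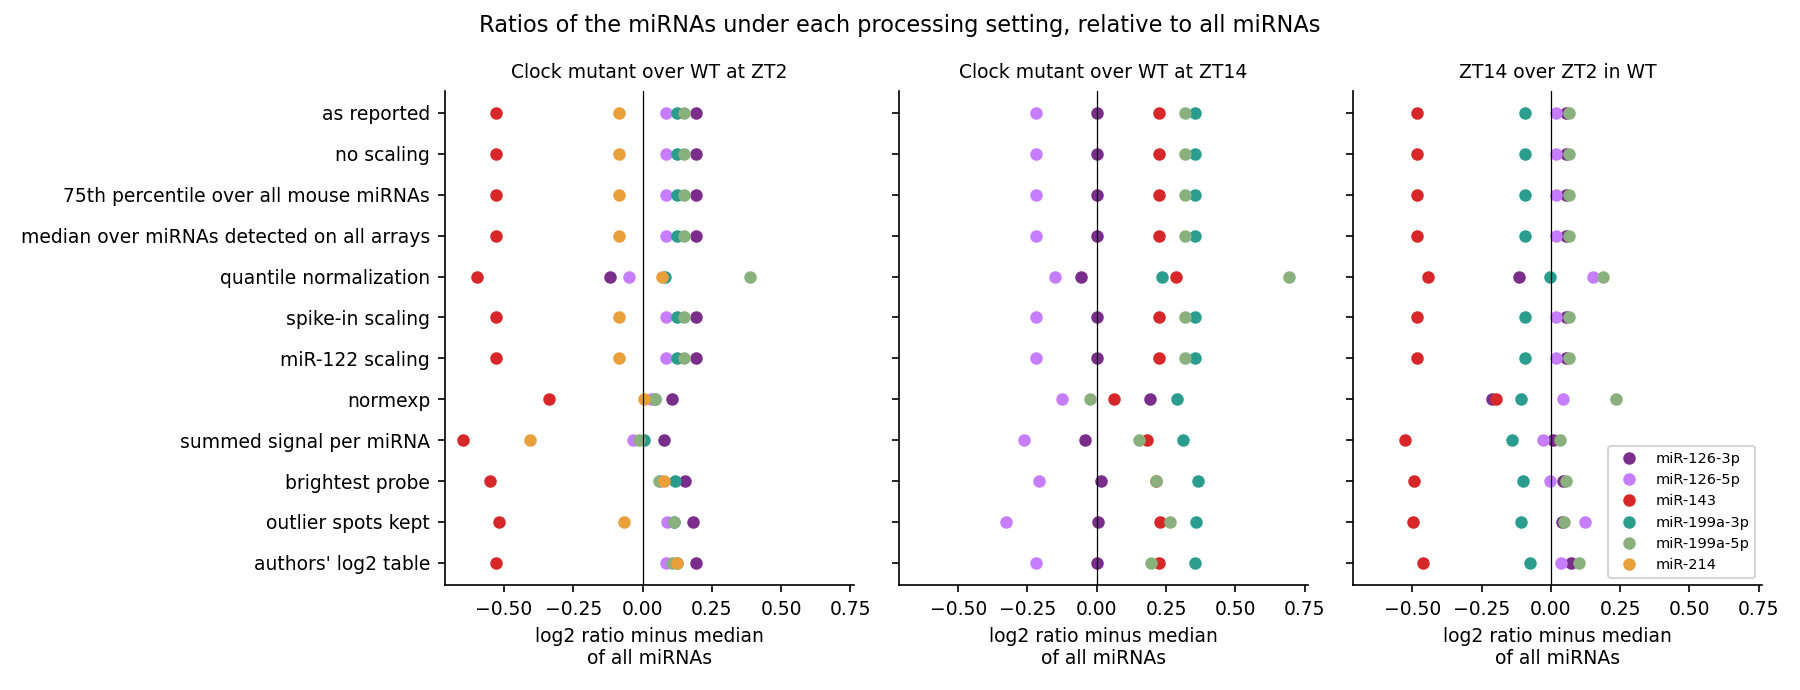
log2 ratio minus the median of all miRNAs measured, for each endothelial or mesenchymal miRNA (coloured points) under the reported processing and 11 others, in 3 contrasts. miR-143 lay below 0 at ZT2 and over time in WT and above 0 at ZT14 in every setting shown, while miR-126-3p at ZT14 lay on both sides of 0. Settings that only rescale whole arrays cannot move a point here.

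Genotype and time were tested with limma over the 4 arrays, each factor serving as the repeat of the other. For genotype, 0 of the 5 miRNAs detected on all arrays passed a Benjamini-Hochberg adjusted p of 0.05, as did 0% of the 123 tested (10 had an unadjusted p below 0.05, none of them among these 5). The nearest were mmu-miR-199a-5p (0.19 higher in the mutant on the log2 scale, SE 0.13, adjusted p = 0.595 by limma) and mmu-miR-199a-3p (0.19 higher, SE 0.14, adjusted p = 0.595 by limma). mmu-miR-143 averaged -0.20 with the widest error (SE 0.23, adjusted p = 0.774 by limma). A fit of genotype alone also gave -0.20 with all arrays, and 0.10 without the WT array at ZT2. mmu-miR-126-3p averaged 0.05 (SE 0.13) and mmu-miR-126-5p -0.12 (SE 0.14). For time point, 0 of the 5 and 0% of the 123 passed (12 had an unadjusted p below 0.05, none of these 5). The nearest was mmu-miR-126-5p, 0.24 lower at ZT14 on the log2 scale (log2 difference -0.24, SE 0.14, adjusted p = 0.525 by limma). mmu-miR-143 had -0.21 (SE 0.23), and a fit of time point alone gave -0.21 with all arrays and 0.09 without the WT array at ZT2. With 4 arrays these misses do not show that levels were equal.

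Other miRNAs tied to the same biology, from lists of miRNAs known in angiogenesis and in stellate cell activation, were counted in the same way. Of 17 angiogenesis miRNAs, 14 were measured at ZT2 and 12 at ZT14, with median genotype log2 ratios of 0.02 and 0.05, beside -0.07 and -0.03 over all miRNAs. None of them reached 2-fold in either, which 2.5% and 6.5% of all miRNAs did. Of 12 miRNAs of stellate cell activation and fibrosis, 10 were measured at each time, with medians of 0.06 and 0.01 and 0 past 2-fold. Over time the medians were -0.07 in WT and -0.09 in the mutant for angiogenesis, and -0.19 and -0.21 for stellate cell activation, beside -0.12 and -0.16 over all miRNAs.

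The mean pattern of the 5 miRNAs detected on all arrays, each centred on its own mean, was 0.09 in WT at ZT2, 0.03 in the mutant at ZT2, -0.12 in WT at ZT14 and -0.01 in the mutant at ZT14 (log2). The miRNAs whose pattern lay closest to it over the 4 arrays were mmu-miR-140, mmu-miR-7a and mmu-let-7f, with root mean square differences of 0.026, 0.033 and 0.044 on the log2 scale. With 4 points per miRNA this is a description of likeness only.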

How the data were processed

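Liver miRNAs were measured on 4 Agilent 1-colour mouse arrays, 1 pool of 3 mice per condition. The authors deposited Feature Extraction 10.7.1.1 output, a linear background-subtracted intensity per spot, and a table of log2 values per miRNA, whose columns for ZT2 and ZT14 are centred differently. From the intensities, spots without outlier calls were averaged within a probe, then over probes, scaled by the 75th percentile of the miRNAs that every array detected, and log2-transformed. No spot was saturated. The number of arrays limits the precision. Ratios of 2 arrays carry the SD of their spots and no test. Genotype and time point were tested in additive limma 3.58.1 fits (R 4.3.3) with Benjamini-Hochberg adjustment over 123 miRNAs and 1 residual degree of freedom each. The fit was run on simulated data with additive genotype changes larger than those reported for these miRNAs. That run held no interaction of genotype and time, so it does not show the power for the differences reported here. Named miRNAs were the members, their other strands and the 3 most alike. Members and lists were chosen with earlier results of these data known. Alternatives were 11 settings of scaling (including quantile normalization with a floor of 1), normexp with an offset of 50, probe summary, outlier spots and the authors' table, a threshold of 1.5-fold, other detection calls, and 1-factor limma fits without single arrays. No column of per-sample values was left unmapped. Sequences of mmu-miR-126-5p, mmu-miR-143 and mmu-miR-145 are not printed. Other steps ran in Python 3.11.15 (pandas 2.3.3, numpy 2.4.6, matplotlib 3.10.9).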

Additional observations from a re-analysis of the deposited data

Results flagged for a closer look

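For mmu-miR-143 mutant over WT gave a log2 ratio of -0.59 by day (ZT2) and 0.19 by night (ZT14), each beyond its spot SD and in opposite directions, so that the ratio at ZT14 minus that at ZT2 was 0.79. Under the other settings it ran from 0.22 (normexp) to 1.65 (spike-ins), and from 0.41 to 0.89 relative to the median of all miRNAs. The difference between the times was not tested, since each condition is 1 array.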

How the results depend on the processing

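Median log2 ratios moved mostly with the scaling, which shifts all miRNAs together: over the settings, the median of all miRNAs ranged from -0.26 to 0.74 at ZT2, -0.21 to 0.78 at ZT14, -0.85 to 6.76 over time in WT and -0.17 to 6.60 over time in the mutant, the last values being the authors' table, whose columns are centred differently by time. Relative to it, the median of the 5 or 6 miRNAs measured was 0.10 at ZT2 (-0.02 to 0.11 elsewhere), 0.22 at ZT14 (0.06 to 0.24), 0.02 over time in WT (-0.11 to 0.04) and 0.14 in the mutant (0.07 to 0.17). Unshifted, the median at ZT2 was 0.35 with the percentile over all mouse miRNAs, -0.15 with miR-122 scaling, -0.19 with summed signals and 0.86 in the authors' table. At ZT14 it was 0.85 without scaling, 0.70 with the percentile over all, 1.01 with spike-ins, 0.0096 with miR-122, -0.11 with normexp and 0.84 in the authors' table. Over time in WT it was -0.76 without scaling, 0.19 with the percentile over all, 0.12 with the median, 0.043 with quantiles, -0.83 with spike-ins, 0.064 with miR-122 and 6.79 in the authors' table. Over time in the mutant it was 0.49 with the percentile over all, 0.19 with the median, 0.32 with quantiles, 0.12 with spike-ins, 0.17 with miR-122, 0.11 with the brightest probe and 6.72 in the authors' table. Counts past 2-fold rose from 0 to 3 at ZT14 with spike-ins, to 1 over time in WT without scaling and with spike-ins, and to 5 and 6 over time in WT and mutant in the authors' table. At 1.5-fold, 1 miRNA (mmu-miR-143) passed at ZT2 and 1, again mmu-miR-143, over time in WT. Of all miRNAs measured there, 11.2% and 11.7% changed by more than mmu-miR-143, so at least these shares passed 1.5-fold too. The exact share of all miRNAs passing was not counted for these alternatives. The 2-fold counts rose where the scaling shifted all miRNAs together, so they do not single out these miRNAs. With spike-ins at ZT14, for example, the median of all miRNAs was 0.78. In limma with all 4 arrays, 0 of these miRNAs were called in any setting. Of the 123 miRNAs tested, 6 were called for genotype with normexp, 5 for time without scaling and 3 for time with normexp. Estimates for genotype turned sign for mmu-miR-126-3p with miR-122 (-0.14), mmu-miR-126-5p and mmu-miR-143 without scaling (0.17 and 0.082), and mmu-miR-199a-5p with miR-122 and normexp (-0.0012 and -0.071). Those for time turned for mmu-miR-126-3p with the median and miR-122 (0.066 and 0.025), mmu-miR-143 with the median (0.0044), mmu-miR-199a-3p with the median, miR-122 and normexp (0.13, 0.091 and 0.012), and mmu-miR-199a-5p without scaling (-0.24). With 1 factor in the model, which with all arrays gives the same estimates as the additive fit, leaving out 1 array gave genotype estimates from -0.065 to 0.16 for mmu-miR-126-3p, -0.30 to 0.072 for mmu-miR-126-5p and -0.50 to 0.10 for mmu-miR-143, and time estimates from -0.51 to 0.087 for mmu-miR-143, -0.24 to 0.080 for mmu-miR-199a-3p and -0.10 to 0.19 for mmu-miR-199a-5p. The causes beyond the scaling itself were not tested. Detection from spots well above background also left mmu-miR-214 undetected in the mutant at ZT14. Signal over background limits mmu-miR-214 and probe 2 of mmu-miR-199a-5p. No paired analysis was possible because the conditions hold 1 array each.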
